A study of Mus musculus with 33 samples.

Results

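The genes described here encode the chains of the basement membrane and type VI collagens, in mouse embryonic stem cell (mESC) cultures that were steered toward tendon or fibrocartilage. They were chosen by gene symbol: Col4a1, Col4a2, Col4a5 and Col4a6 for type IV collagen, Col6a1, Col6a2 and Col6a3 for type VI, Col15a1 for type XV and Col18a1 for type XVIII. Of these 9 genes 8 were measured among 17120 genes in all, and Col4a6 was not analysed here. RNA sequencing was performed on 33 libraries in 11 groups of 3 replicates. The mESCs came from ScxGFP reporter mice, in which GFP marks cells that express the tendon regulator Scx, and were kept on irradiated mouse embryonic fibroblasts before differentiation. The source gives the use of several ScxGFP+ lines in the study but not which line a library came from, so the p-values below measure the spread between these samples. The common starting group was paraxial mesoderm (PM), collected on D6. It followed embryoid body formation and culture with LDN-193189 to block BMP receptors and CHIR to activate Wnt signaling. For this stage the methods list either an inverse agonist or an agonist of the retinoic acid receptors. When the paper compared them, the agonist nearly abolished ScxGFP induction at D10, whereas the inverse agonist raised it. The paper calls the protocols behind its RNA sequencing highly efficient. The labels do not say which of these compounds, if any, the PM libraries had received. The inverse agonist is the same compound that the fibrocartilage condition received from D6. From D6, the start of induction, the cells were cultured with TGFβ1, the hedgehog agonist SAG and FGF2 in every culture. The tendon condition also received CD1530, an agonist of retinoic acid receptor gamma, and the fibrocartilage condition received AGN 193109 (AGN below), which lowers the basal activity of retinoic acid receptors as an inverse agonist. Libraries of both came from 5 time points: D6.25 and D6.75 (0.25 and 0.75 days after the start of induction), then D7.5 and D8.5 (1.5 and 2.5 days), and last D10 (4 days). PM thus differs from all later groups in medium as well as in time, and may differ in culture format.

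Type IV collagen is the network-forming collagen of all basement membranes, the thin sheets of matrix that underlie epithelia and endothelia and surround muscle, fat and nerve cells. Its most widespread form is a heterotrimer of the α1 and α2 chains, encoded by Col4a1 and Col4a2, whereas α5 and α6 chains occur in the basement membranes of selected tissues. Collagens XV and XVIII are proteoglycans of the basement membrane zone, and the C-terminal fragment of collagen XVIII is endostatin. Type VI collagen is a beaded-filament collagen made of the α1, α2 and α3 chains. It lies in the interstitial matrix next to basement membranes and in the pericellular matrix of tendon and cartilage cells, and mutations in its genes cause congenital muscular dystrophy with joint contractures and laxity.

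Col4a1 and Col4a2 lie head to head on opposite strands. In GENCODE M21 on GRCm38, Col4a1 (ENSMUSG00000031502) spans chr8:11198423-11312826 on the minus strand and Col4a2 (ENSMUSG00000031503) chr8:11312805-11449287 on the plus strand, so that the 2 genes overlap by 22 bases. The 2 RefSeq promoter windows (250 bases before to 50 bases after each transcription start, GRCm38.p6) are shown because the windows overlap and the 2 genes had like courses. The 78 bases that the windows have in common are in capitals and read as reverse complements of each other, and each window runs 5′ to 3′ on the strand of its gene, Col4a1 at chr8:11312777-11313076 and Col4a2 at chr8:11312555-11312854.
Col4a1: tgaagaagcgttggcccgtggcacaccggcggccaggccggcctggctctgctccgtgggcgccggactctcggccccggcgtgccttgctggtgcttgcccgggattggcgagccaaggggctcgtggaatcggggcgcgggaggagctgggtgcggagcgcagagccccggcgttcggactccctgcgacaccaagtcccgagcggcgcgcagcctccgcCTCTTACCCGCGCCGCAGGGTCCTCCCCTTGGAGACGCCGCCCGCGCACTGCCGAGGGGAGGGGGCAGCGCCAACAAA
Col4a2: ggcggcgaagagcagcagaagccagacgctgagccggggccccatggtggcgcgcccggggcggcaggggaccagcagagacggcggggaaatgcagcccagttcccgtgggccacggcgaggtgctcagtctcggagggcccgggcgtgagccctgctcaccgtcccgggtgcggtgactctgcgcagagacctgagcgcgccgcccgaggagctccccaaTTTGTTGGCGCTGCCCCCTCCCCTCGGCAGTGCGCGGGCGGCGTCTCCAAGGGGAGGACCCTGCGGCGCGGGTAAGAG
The GC content was 74% in the Col4a1 window and 73.7% in the Col4a2 window. A search on both strands for GGGCGG (the GC box) found 1 match in the Col4a1 window and 3 in that of Col4a2, and each window held 1 CCAAT. Over 32851 promoter windows of the same length, 35.7% held the GC box and 37.4% this second motif. The half-site of nuclear receptors, AGGTCA, which 16.3% of all windows held, and the TATA box, searched as TATAAA and held by 13.6%, had no match in the windows of any of the 8 measured genes.

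Col6a1 (ENSMUSG00000001119, chr10:76708792-76726168) and Col6a2 (ENSMUSG00000020241, chr10:76595762-76623630) also neighbour each other, both on the minus strand and 85162 bases apart, whereas Col6a3 (ENSMUSG00000048126, chr1:90765923-90843971, minus strand) lies on another chromosome. GGGCGG had no match in the Col6a1 and Col6a3 windows, and 3 and 1 in the 2 windows of Col6a2. The others are Col4a5 (ENSMUSG00000031274, chrX:141475385-141689234, plus strand), Col15a1 (ENSMUSG00000028339, chr4:47208161-47313167, plus strand) and Col18a1 (ENSMUSG00000001435, chr10:77052178-77166548, minus strand). The 3′ end of Col18a1 overlaps Slc19a1 on the opposite strand by 8825 bases. Slc19a1 had a mean of 388 counts per library against at least 14028 for Col18a1 in every library, and the source used here does not give the strand setting of the counting.

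The libraries held 17.1 to 22.8 M counts, except AGN at D8.5 replicate 1 with 38.1 M. Counts ran from 4747 to 80162 per library for Col4a1, from 92 to 1750 for Col4a5, which had the lowest single count of the 8, and from 132 to 1206 for Col15a1. Levels are TMM CPM (counts scaled to the total of the library, corrected by the TMM method), given as mean ± SD of 3 libraries unless each library is given. CD1530 D6.75 replicate 1 stood apart from its replicates, with a chi-square per gene of 20.6 and 21.9 in its 2 pairs against at most 4.87 in the other 31 pairs of replicates. Several results at D6.75 in CD1530 are given with and without it, and the sums, ratios and correlations include it. A gene was called changed at a Benjamini-Hochberg adjusted p under 0.05 over all 17120 genes, in edgeR's quasi-likelihood test. Fold changes are log2 values. Their standard error (SE) was derived from that test, as the absolute log2 value divided by the square root of its F statistic.

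All 8 genes rose from PM to D10 in both conditions. Together they held 0.210% ± 0.0192 (SD, n = 3) of all counts in PM, 0.964% ± 0.00542 in CD1530 at D10 and 0.919% ± 0.0264 in AGN at D10. In the contrast of D10 with PM, 8 of 8 genes were called higher in CD1530, where 83.2% of all genes were called and 43.3% were called higher, and 8 of 8 in AGN, where 82% were called and 41.6% were called higher. The PM libraries serve both contrasts. The size of the rise differed between the collagen types. Col4a1, Col4a2 and Col4a5 rose by 3.50 to 3.98 on the log2 scale in CD1530 and by 3.20 to 3.58 in AGN, the type VI genes by 1.45 to 1.55 in CD1530 and 2.10 to 2.17 in AGN, Col15a1 by 2.60 and 2.61, and Col18a1 by 1.42 and 1.05. Over all genes the median change was 0.04 in CD1530 and -0.00 in AGN. Col18a1 was the most abundant member in PM and had the smallest rise in both conditions.

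**Figure D1:**
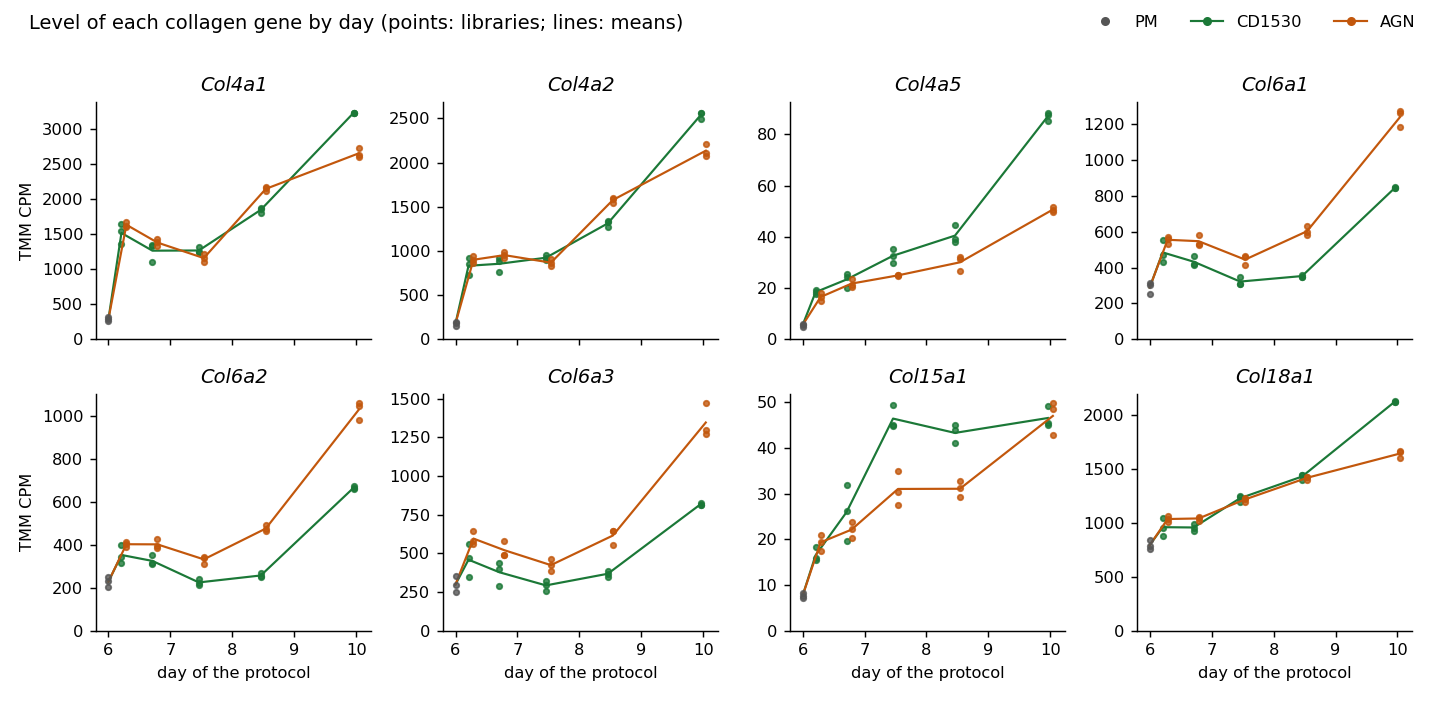
TMM CPM of each gene (vertical axes, from 0) against the day of the protocol, with 1 point per library (n = 3 per group) and lines through the group means, PM in grey, CD1530 in green and AGN in orange. The type VI means lie higher in AGN at every time point, with differences called from D6.75 on. The means of Col4a1 and Col4a2 are higher in AGN at D6.25, D6.75 and D8.5 and higher in CD1530 at D7.5 and D10. Col15a1 meets at D10 (46.6 in CD1530 and 47.1 in AGN).

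The α1 and α2 chain genes of type IV collagen had their largest step, on the log2 scale, within 0.25 days of the start of induction. Col4a1 was at 316, 283 and 256 CPM in the 3 PM libraries and at 1363, 1642 and 1544 in CD1530 at D6.25, against 1621, 1601 and 1678 in AGN. No later library was near the PM range. The step was 2.41 ± 0.07 (SE) in CD1530 (adjusted p = 2.09e-20 in edgeR) and 2.52 ± 0.07 in AGN (adjusted p = 9.33e-21). Col4a2 followed with 199, 182 and 155 CPM in PM, 731, 916 and 849 in CD1530 at D6.25 and 896, 861 and 944 in AGN. Its first step was 2.22 ± 0.08 in CD1530 and 2.33 ± 0.08 in AGN. The call of Col6a3 in CD1530 (0.62 ± 0.15, with libraries that overlapped those of PM) was lost in a fit of the 2 groups alone (adjusted p = 0.0672). In this step 8 of 8 genes were called higher in each condition, with 67.8% of all genes called in CD1530 (34.5% higher) and 68.1% in AGN (35% higher).

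Between D6.25 and D7.5 Col4a1 fell in both conditions. The fall from D6.25 to D6.75 was -0.26 ± 0.07 in CD1530 (adjusted p = 0.00226 in edgeR), or -0.18 ± 0.06 (adjusted p = 0.0283) without CD1530 D6.75 replicate 1. In AGN it fell over that step by 0.24 ± 0.07 (adjusted p = 0.00446) and by a further 0.25 ± 0.07 to D7.5 (adjusted p = 0.00514), the change in CD1530 over that step being 0.00 ± 0.07. Col4a2 was not called in either of these steps in either condition, with log2 changes from -0.14 to 0.11, although fits of the 2 groups alone called both AGN steps (0.07 ± 0.03, adjusted p = 0.0296, and -0.13 ± 0.03, adjusted p = 0.00133). At D7.5 the Col4a1 libraries were at 1249, 1313 and 1238 CPM in CD1530 and 1163, 1211 and 1101 in AGN, so that every CD1530 library was above every AGN library.

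A second rise followed, and its last step differed between the conditions. From D7.5 to D8.5 Col4a1 rose by 0.89 ± 0.07 in AGN (adjusted p = 4.03e-11 in edgeR) and by 0.54 ± 0.07 in CD1530 (adjusted p = 3.26e-07), and from D8.5 to D10 by 0.31 ± 0.07 in AGN (adjusted p = 0.000333) and 0.81 ± 0.07 in CD1530 (adjusted p = 1.15e-10). Col4a2 rose by 0.86 ± 0.08 in AGN and 0.51 ± 0.08 in CD1530 in the earlier of these steps and by 0.44 ± 0.08 and 0.95 ± 0.08 in the later one. The interaction of condition with this last step, which asks whether it differs between the conditions, was 0.50 ± 0.09 for Col4a1 (adjusted p = 0.000236) and 0.51 ± 0.11 for Col4a2 (adjusted p = 0.000657).

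The order of the conditions turned over between D8.5 and D10. At D8.5 Col4a1 was at 1804, 1865 and 1872 CPM in CD1530 and at 2171, 2109 and 2156 in AGN, with every AGN library above every CD1530 library. At D10 it was at 3235, 3232 and 3231 in CD1530 and at 2636, 2725 and 2597 in AGN, with every CD1530 library above. CD1530 minus AGN was -0.22 ± 0.07 at D8.5 (adjusted p = 0.0116 in edgeR) and 0.29 ± 0.07 at D10 (adjusted p = 0.000973), a fold of 1.16 one way and 1.22 the other. Col4a2 showed the same order, with 1267, 1332 and 1339 CPM in CD1530 against 1593, 1541 and 1595 in AGN at D8.5, and 2565, 2558 and 2498 against 2113, 2212 and 2080 at D10. Its differences were -0.26 ± 0.08 (adjusted p = 0.00657) and 0.25 ± 0.07 (adjusted p = 0.00782). At D6.25, D6.75 and D7.5 neither gene was called between the conditions. At D7.5, where the differences were 0.13 ± 0.07 (adjusted p = 0.171) and 0.09 ± 0.08 (adjusted p = 0.428), a fit of the 2 groups alone called both genes higher in CD1530, Col4a1 by 0.12 ± 0.03 (adjusted p = 0.00216) and Col4a2 by 0.08 ± 0.03 (adjusted p = 0.0426).

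Col4a5, the α5 chain gene on the X chromosome, was far less abundant but diverged earlier and in 1 direction. The PM libraries were at 6.03, 5.53 and 4.96 CPM. At D7.5 the CD1530 libraries were at 29.9, 35.4 and 32.5 CPM and the AGN libraries at 24.9, 25.1 and 24.7. At D10 they were at 88.4, 85.3 and 87.5 in CD1530 and 49.8, 51.8 and 50.3 in AGN. The groups did not overlap at D7.5, D8.5 or D10. CD1530 minus AGN was 0.39 ± 0.08 at D7.5 (adjusted p = 0.000138 in edgeR), then 0.42 ± 0.07 at D8.5 (adjusted p = 1.24e-05) and 0.78 ± 0.07 at D10 (adjusted p = 1.41e-12), which made it the largest difference between the conditions among the 8 genes at D10, 1.72-fold. Over the last step it rose by 1.10 ± 0.07 in CD1530 and 0.74 ± 0.07 in AGN, and the interaction was 0.36 ± 0.10 (adjusted p = 0.00679). Its rise from D7.5 to D8.5 in AGN, 0.28 ± 0.08 (adjusted p = 0.00368), had an adjusted p of 0.051 without AGN D8.5 replicate 1, the deepest library.

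The 3 chain genes of type VI collagen had like courses, with a trough at D7.5 and a late rise, and were higher in AGN than in CD1530. The trough was not theirs alone, as Col4a1 in AGN also had one at D7.5 (1158 CPM). Col6a1 was at 312, 302 and 253 CPM in PM, at 310, 345 and 310 in CD1530 at D7.5 and at 462, 457 and 413 in AGN at D7.5. The CD1530 libraries were thus back near the PM range while the AGN libraries stayed above it. From D6.75 to D7.5 Col6a1 fell by 0.43 ± 0.08 in CD1530 (adjusted p = 9.48e-05 in edgeR) and 0.30 ± 0.08 in AGN (adjusted p = 0.00348), and Col6a2 fell by 0.53 ± 0.07 (adjusted p = 1.30e-06) and 0.28 ± 0.07 (adjusted p = 0.00341). Without CD1530 D6.75 replicate 1 the values in CD1530 were -0.45 ± 0.09 and -0.55 ± 0.08, both called. Col6a3 had values of -0.37 ± 0.15 and -0.30 ± 0.15 in this step that were not called (adjusted p = 0.0652 and 0.149), and the one in CD1530 was called without CD1530 D6.75 replicate 1 (-0.52 ± 0.15, adjusted p = 0.0105), with library-size scaling and in DESeq2.

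The late rise of the type VI genes had its larger step from D8.5 to D10 in both conditions. From D7.5 to D8.5, Col6a1, Col6a2 and Col6a3 rose by 0.44 ± 0.08, 0.52 ± 0.07 and 0.54 ± 0.15 in AGN (adjusted p = 3.76e-05, 8.97e-07 and 0.00536 in edgeR). In CD1530 only Col6a2 was called in that step, at 0.19 ± 0.07 (adjusted p = 0.035), a call that was lost with library-size scaling and without any of 4 single libraries, and the values of Col6a1 and Col6a3 were 0.13 ± 0.08 and 0.33 ± 0.15. A fit of the 2 groups alone called Col6a1 in that step (0.12 ± 0.03, adjusted p = 0.000755). Whether this step differed between the conditions was not tested. From D8.5 to D10 they rose by 1.26 ± 0.08, 1.37 ± 0.07 and 1.15 ± 0.15 in CD1530 and by 1.04 ± 0.08, 1.11 ± 0.07 and 1.13 ± 0.15 in AGN. The interaction for this last step was not called for any of the 3 genes (adjusted p = 0.136, 0.0519 and 0.954), although Col6a2 passed the threshold in 6 of 19 alternative fits and Col6a1 in 1 of 19, the fit of the compared groups only (adjusted p = 6.12e-07).

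Type VI genes differed between the conditions from D6.75 on, always in the same direction. At D10 Col6a1 was at 845, 843 and 847 CPM in CD1530 and 1261, 1272 and 1184 in AGN. Col6a2 was at 671, 665 and 659 against 1059, 1043 and 977, and Col6a3 at 829, 814 and 815 against 1271, 1472 and 1296. For each gene every AGN library was above every CD1530 library. CD1530 minus AGN was -0.55 ± 0.08 for Col6a1 (adjusted p = 1.05e-06 in edgeR), -0.63 ± 0.07 for Col6a2 (adjusted p = 2.14e-08) and -0.72 ± 0.15 for Col6a3 (adjusted p = 0.000299). The largest difference of Col6a1 and Col6a2 was at D8.5, at -0.77 ± 0.08 and -0.89 ± 0.07, when Col6a2 was at 248, 268 and 255 CPM in CD1530, little above its PM libraries at 248, 232 and 205, and at 492, 471 and 463 in AGN. At D6.75 the differences were -0.34 ± 0.08, -0.31 ± 0.07 and -0.46 ± 0.15 (adjusted p = 0.00204, 0.00215 and 0.0332). Without CD1530 D6.75 replicate 1, Col6a1 and Col6a2 were at -0.31 ± 0.09 and -0.29 ± 0.08 (adjusted p = 0.0141 and 0.0168). The call of Col6a3 at D6.75 was lost in a fit of the 2 groups alone (adjusted p = 0.0901), without CD1530 D6.75 replicate 1 (adjusted p = 0.185) and without AGN D6.75 replicate 1 (adjusted p = 0.153), and its call at D7.5 without CD1530 D7.5 replicate 1 (adjusted p = 0.0568). Col6a3 had the widest spread of the 3 genes between replicates, for example 349, 560 and 470 CPM in CD1530 at D6.25.

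Collagens XV and XVIII, the proteoglycan collagens of the basement membrane zone, differed from each other. Col15a1 rose in both conditions from PM to D6.25, by 1.11 ± 0.15 in CD1530 and 1.33 ± 0.14 in AGN, and again from D6.75 to D7.5, by 0.84 ± 0.11 and 0.48 ± 0.12. From D6.25 to D6.75 it rose by 0.65 ± 0.12 in CD1530 and was not called in AGN (0.20 ± 0.12), where a fit of the 2 groups alone called it (0.19 ± 0.07, adjusted p = 0.0206 in edgeR). Without CD1530 D6.75 replicate 1 the CD1530 values of these last steps were 0.81 ± 0.10 and 0.68 ± 0.09. In CD1530 it was at 19.7, 32 and 26.3 CPM at D6.75, 44.9, 49.4 and 45.1 at D7.5 and 45.6, 49.2 and 45 at D10. In AGN the D7.5 libraries were at 30.5, 35.1 and 27.6, the D8.5 libraries at 32.7, 29.3 and 31.3, and those of D10 at 42.8, 49.8 and 48.6. The groups were apart at D7.5 and D8.5 and overlapped at D10. At D6.75 CD1530 minus AGN was 0.23 ± 0.12 and not called (adjusted p = 0.201 in edgeR), and without CD1530 D6.75 replicate 1 it was called at 0.39 ± 0.09 (adjusted p = 0.00207). The difference was 0.58 ± 0.11 at D7.5 (adjusted p = 0.000104 in edgeR), 0.47 ± 0.11 at D8.5 (adjusted p = 0.000701) and -0.01 ± 0.11 at D10 (adjusted p = 0.925). Over the last step Col15a1 rose by 0.59 ± 0.11 in AGN (adjusted p = 2.45e-05), and its value in CD1530 was 0.10 ± 0.11 (adjusted p = 0.418), or 0.12 ± 0.05 (adjusted p = 0.0278) in a fit of the 2 groups alone. The interaction was -0.49 ± 0.15 (adjusted p = 0.0156), opposite in sign to that of the type IV genes.

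Col18a1 parted between the conditions after D8.5. At D8.5 it was at 1401, 1449 and 1445 CPM in CD1530 and 1428, 1402 and 1428 in AGN. At D10 it was at 2125, 2125 and 2132 against 1660, 1666 and 1608. The libraries overlapped at D8.5 and were apart at D10. CD1530 minus AGN was 0.01 ± 0.04 at D8.5 (adjusted p = 0.846 in edgeR) and 0.37 ± 0.04 at D10 (adjusted p = 2.22e-10), and the last step was 0.57 ± 0.04 in CD1530 against 0.21 ± 0.04 in AGN, an interaction of 0.36 ± 0.06 (adjusted p = 3.70e-06). A small difference at D6.75, -0.12 ± 0.04 (adjusted p = 0.0293), was lost in 5 of 13 alternative fits, each of CD1530 replicates 1 and 3 and AGN replicates 1 and 3 being enough to end the call when left out (adjusted p = 0.161 without CD1530 replicate 1).

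Counted over time, the number of the 8 genes called between the conditions was 0 at D6.25, where 1.92% of all genes were called, 4 at D6.75 (18% of all genes), 5 at D7.5 (26.9%), and 7 on both D8.5 (40%) and D10 (46.6%). The 4 at D6.75 were lower in CD1530 (10% of all genes). At D7.5, 2 were higher (15.2%) and 3 lower (11.8%), and at D8.5, 2 were higher (20.4%) and 5 lower (19.6%). At D6.25, 4 of the 8 had an unadjusted p under 0.05 in edgeR and DESeq2 called 0 of them, and without CD1530 D6.25 replicate 2 the genes Col6a1, Col6a2 and Col18a1 were called. The count at D6.75 was 2 without AGN D6.75 replicate 1 and 3 without CD1530 D6.75 replicate 1, which took away Col6a3 and Col18a1 and brought in Col15a1. At D10, 4 genes were called higher in CD1530 (22.7% of all genes) and 3 lower (24% of all genes), 7 did not overlap between the conditions (57% of all genes), and the median over the 8 genes was 0.12, against -0.02 over all genes. The interaction of condition with time over the 5 time points was called for 7 of the 8 genes (48.8% of all genes), Col6a3 being the exception (adjusted p = 0.442 in edgeR). The interaction with the last step was called for 5 of the 8 (26.8% of all genes).

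**Figure D2:**
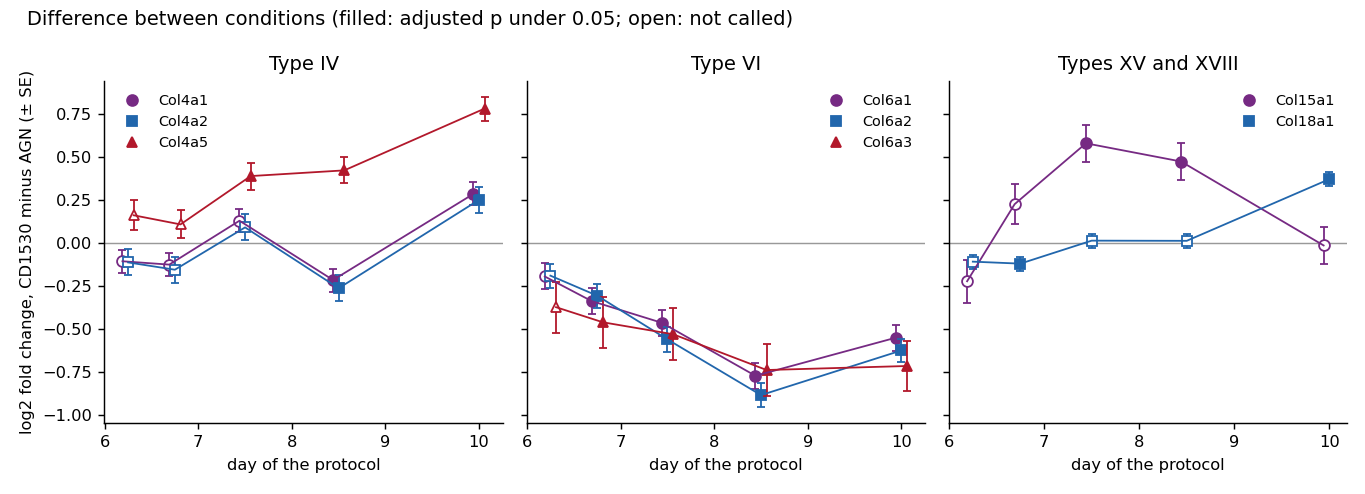
Log2 fold change of CD1530 minus AGN (vertical axis, ± SE) at the 5 time points for type IV, type VI, and types XV and XVIII, with filled symbols for an adjusted p under 0.05. Col4a1 and Col4a2 go from -0.22 and -0.26 at D8.5 to 0.29 and 0.25 at D10, while the type VI genes are below 0 at every time point.

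The steps within a condition had these counts of called genes after the step from PM. From D6.25 to D6.75, 3 of the 8 were called in CD1530 (45.9% of all genes) and 2 in AGN (43.7%). From D6.75 to D7.5 the counts were 5 in CD1530 (34.2%) and 5 in AGN (30.3%), with falls of type VI genes beside rises of Col15a1 and Col18a1 in both conditions. From D7.5 to D8.5 they were 5 (36.5%) and 7 (42.1%), all of them rises, where 3227 and 3668 of 17120 genes were called higher. The last step, D8.5 to D10, had 7 (57.3%) and 8 (59.4%), again all rises, where 27.4% and 29.9% of all genes were called higher. Without CD1530 D6.25 replicate 1 the count for D6.25 to D6.75 in CD1530 was 6. With scaling by library size alone, the share of called genes that rose was lower in the later steps over all genes, 40.5% against 51.6% from D7.5 to D8.5 and 35.6% against 47.8% from D8.5 to D10 in CD1530, and 32.2% against 50.9% and 38.7% against 50.4% in AGN. Every member called in these 4 steps was still positive under that scaling.

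Summed by type and per kilobase of exon, the balance of type IV to type VI transcripts was reversed from PM to later days and differed between the conditions. The sum of Col4a1, Col4a2 and Col4a5 was 66 ± 7.52 CPM per kilobase (SD, n = 3) in PM, on D8.5 it was 452 ± 11.3 in CD1530 and 530 ± 8.74 in AGN, and on D10 it was 830 ± 5.74 and 685 ± 19.3. The sum of the type VI genes was 118 ± 13.7 in PM, on D8.5 it was 142 ± 3.45 in CD1530 and 246 ± 11.2 in AGN, and on D10 it was 341 ± 1.25 and 519 ± 21.4. The ratio of the type IV to the type VI sum was 0.563, 0.546 and 0.564 in the PM libraries, so the type VI sum was the larger there. On D8.5 the ratio was 3.17, 3.15 and 3.22 in CD1530 and 2.09, 2.21 and 2.17 in AGN. On D10 it was 2.43, 2.44 and 2.42 in CD1530 and 1.30, 1.31 and 1.35 in AGN. All CD1530 libraries were above all AGN libraries at both days and at the 3 earlier time points as well. With the longest transcript of each gene in place of all exons, a choice made after the data were seen, the mean ratio was 0.489 in PM, 2.12 in CD1530 at D10 and 1.15 in AGN at D10, and the CD1530 libraries were again above the AGN libraries at all 5 time points. No test was made of these sums, and a comparison of 3 with 3 libraries could not give an exact permutation p below 0.1.

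**Figure D3:**
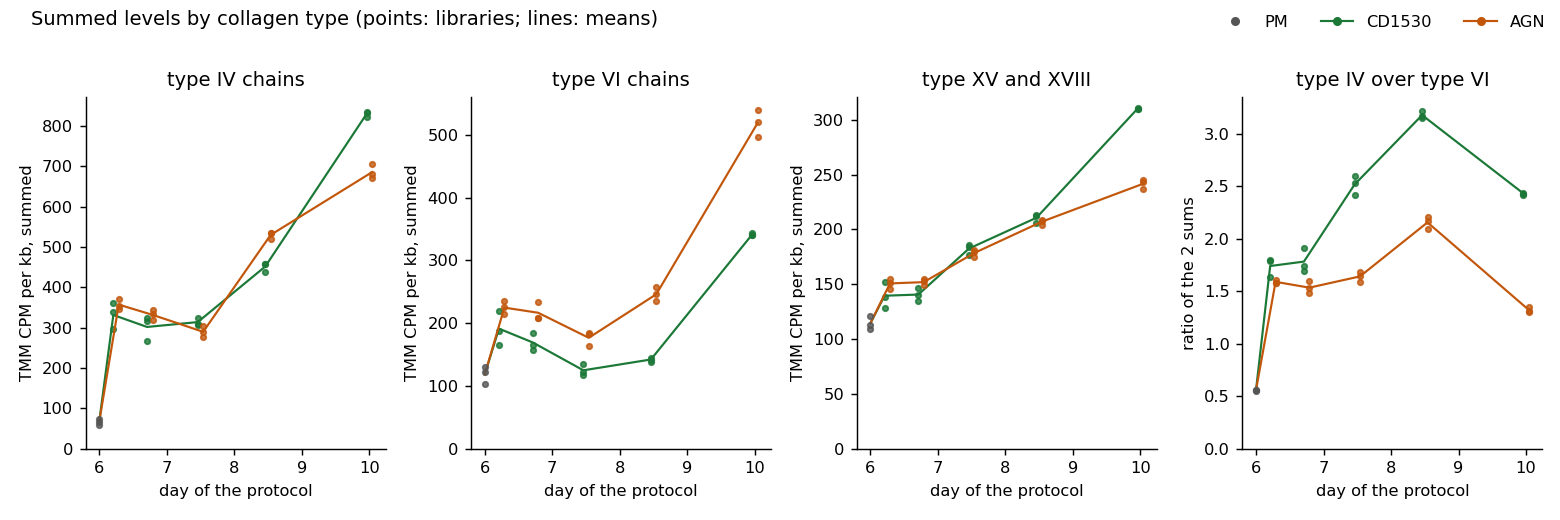
Summed TMM CPM per kilobase of exon of the type IV, type VI, and type XV and XVIII genes, and the ratio of the type IV to the type VI sum (vertical axes, from 0), against the day of the protocol, with 1 point per library and lines through the means. The ratio is 0.558 in PM, peaks at D8.5 in both conditions and is higher in CD1530 (2.43) than in AGN (1.32) at D10.

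Ratios within a library do not depend on how libraries are scaled, and were used to compare chains that assemble together. The ratio of Col4a1 to Col4a2 per kilobase of exon fell along both trajectories, from D6.25, when it was 1.62 ± 0.0330 (SD, n = 3) in CD1530 and 1.61 ± 0.0363 in AGN, to 1.13 ± 0.0159 and 1.10 ± 0.00845 at D10, with PM at 1.42 ± 0.0455. Col6a1 to Col6a2 stayed between group means of 2.29 and 2.72, and Col6a3 to Col6a1 between 0.319 and 0.398. The lowest of these means, CD1530 at D6.75, includes replicate 1 at 0.2564, against 0.3459 and 0.3547 in its other libraries. At D10 the log2 ratio of CD1530 minus that of AGN was 0.03 for Col4a1 to Col4a2, 0.07 for Col6a1 to Col6a2 and -0.16 for Col6a3 to Col6a1. The 3 CD1530 libraries did not overlap the 3 AGN libraries in any of the 3 ratios, and the two-sided exact permutation p was 0.1 for each, the smallest this design can give. Exon length matters to the ratio itself: with the longest transcript in place of all exons, Col6a1 to Col6a2 at D10 was 1.52 in CD1530 and 1.45 in AGN, against 2.42 and 2.29. The ratio of Col4a5 to Col4a6 was not analysed here.

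**Figure D4:**
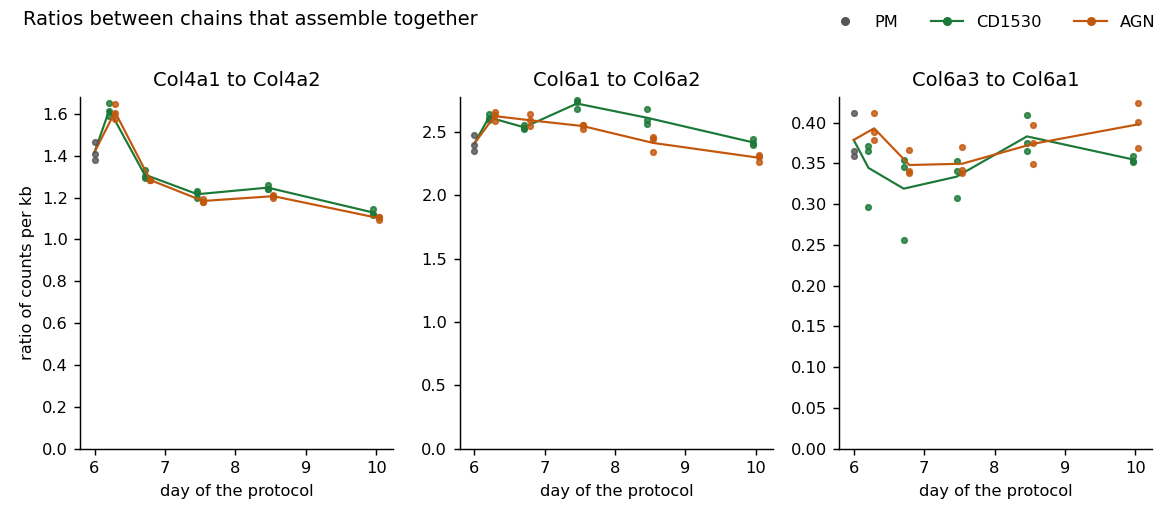
Ratio of counts per kilobase of exon within each library (vertical axes, from 0) for Col4a1 to Col4a2, Col6a1 to Col6a2 and Col6a3 to Col6a1, against the day of the protocol, with 1 point per library and lines through the means. Col4a1 to Col4a2 is 1.62 (CD1530) and 1.61 (AGN) at D6.25 and 1.13 and 1.10 at D10, with a small rise between D7.5 and D8.5. Group means of Col6a1 to Col6a2 lie between 2.29 and 2.72. Single libraries of Col6a3 to Col6a1 run from 0.2564 (CD1530 D6.75 replicate 1) to 0.4235 (AGN D10 replicate 2).

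The order of levels per kilobase of exon changed over the course. In PM Col18a1 was highest at 113 ± 6.14 CPM per kilobase, followed by Col6a1 at 65.9 ± 7.18 and Col4a1 at 38.2 ± 4.06. Col6a2, Col4a2 and Col6a3 came next at 27.4, 27.0 and 25.0, and neighbours among them overlapped between libraries, and Col15a1 (1.21) and Col4a5 (0.819) were lowest. In CD1530 at D10 the order was Col4a1 (433 ± 0.258), Col4a2 (384 ± 5.55), Col18a1 (303 ± 0.621), Col6a1 (193 ± 0.458), Col6a2 (79.9), Col6a3 (68.5), Col4a5 (13.0) and Col15a1 (7.34), and no neighbours overlapped. In AGN at D10 Col6a1 (283 ± 10.9) stood above Col18a1 (234 ± 4.55), behind Col4a1 (355 ± 8.77) and Col4a2 (323 ± 10.4). There Col6a2 (123) and Col6a3 (113) overlapped, as did Col4a5 (7.54) and Col15a1 (7.41). These orders rest on the exon length. With the longest transcript, also chosen after the data were seen, Col6a1 (302 ± 11.7) and Col18a1 (294 ± 5.71) overlapped in AGN at D10, Col6a2 (209) was apart from Col6a3 (133), and Col15a1 (9.10) was above and apart from Col4a5 (7.75). In PM Col6a2 (46.5) then came before Col4a1 (43.1) and overlapped it, and Col6a3 (29.6) came before Col4a2 (27.7), whereas the order in CD1530 at D10 was the same.

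The likeness of the courses was described by Pearson's r over the 11 group means of log2(TMM CPM + 1). Col6a1, Col6a2 and Col6a3 had r of 0.989 to 0.996 with each other, Col4a1 and Col4a2 0.985, and Col6a1 and Col4a1 0.733. Col4a5 was closer to Col4a2 (0.943), Col18a1 (0.934) and Col15a1 (0.932) than to the type VI genes (0.569 to 0.614). The 11 points share the same libraries, and most genes of this series moved over time. Among 13687 genes Col4a2 ranked 6th in likeness to Col4a1. Outside the 8 genes, the most alike were Clcn4 (0.989) and Pcdh19 (0.986) for Col4a1, Clcn4 (0.992) and Dync1li2 (0.992) for Col4a2, Rnf19a (0.991) and Ccnd2 (0.991) for Col4a5, Zfp423 (0.988) and Meis1 (0.986) for Col15a1, and Piezo1 (0.989) and Capzb (0.985) for Col18a1. For the type VI genes they were Atp6ap1 (0.968) and Tmed10-ps (0.968) for Col6a1, Atp6ap1 (0.966) and C1qtnf1 (0.962) for Col6a2, and Tmed10-ps (0.958) and C1qtnf1 (0.947) for Col6a3. Tmed10-ps carries the name of a pseudogene, and reads shared with its parent gene make its count uncertain.

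Genes whose products assemble with or act on these collagens were followed from lists, in the contrast of CD1530 with AGN at D10. Laminins form the second network of the basement membrane. Of 11 laminin chains, 3 were called higher in CD1530 (22.7% of all genes) and 6 lower (24% of all genes), with a median of -0.18 against -0.02 over all genes. The 3 that were higher, named after their values were seen, were Lama1 (1.03 ± 0.10), Lamb1 (0.64 ± 0.07) and Lamc1 (0.60 ± 0.08), which encode the chains of one laminin trimer. Lama1 was at 826, 804 and 799 CPM in CD1530 and 363, 430 and 394 in AGN. The lowest were Lamc3 (-2.26 ± 0.11), at 6.16, 6.82 and 6.24 CPM against 32.3, 31 and 29.1, and Lama2 (-1.10 ± 0.12), the α2 chain of muscle and nerve basement membranes. These had adjusted p of 1.13e-08 (Lama1), 9.52e-21 (Lamc3) and 1.88e-08 (Lama2) in edgeR.

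Nidogens link the laminin and type IV collagen networks. Among 16 nidogens, heparan sulfate proteoglycans and other basement membrane proteins, 6 were called higher and 9 lower, against 22.7% and 24% of all genes, with a median of -0.41. The most changed were Smoc2 (-2.23 ± 0.06), a calcium-binding matrix protein, Frem1 (-1.75 ± 0.13), of the Fraser complex that anchors epidermis to dermis, and Tinagl1 (1.42 ± 0.09). Smoc2 was at 51.7, 46.6 and 48.8 CPM in CD1530 and 232, 224 and 233 in AGN. Of 4 measured genes among 7 other type IV, VI, VII and XVII chains, Col6a5 was called higher (1.92 ± 0.64, adjusted p = 0.0122 in edgeR) and Col17a1 lower (-0.84 ± 0.33, adjusted p = 0.0343), both below the count minimum for named genes and named after their values were seen.

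Of 16 receptors of these collagens and of laminins, 8 were called higher and 2 lower, against 22.7% and 24% of all genes, with a median of 0.18. Itga3, the α3 subunit of a laminin-binding integrin, was higher by 1.44 ± 0.07, at 106, 106 and 110 CPM against 39.3, 40.7 and 38.9. Itga11, the α11 subunit of a collagen-binding integrin, had a difference of -1.88 ± 0.07, at 75.3, 72.2 and 75.9 against 273, 279 and 268, and Cspg4, the NG2 proteoglycan that binds type VI collagen, one of -1.22 ± 0.10. Their libraries did not overlap between the conditions. Of 7 matrix partners of type VI collagen, Matn4 (-4.26 ± 0.10), Bgn (-1.05 ± 0.05) and Vwa1 (-0.71 ± 0.13) were called lower and Dcn (1.45 ± 0.05) and Nid1 (0.48 ± 0.10) higher, the median being -0.25. Biglycan (Bgn) and decorin (Dcn), both small leucine-rich proteoglycans that bind type VI collagen, differed in opposite directions: Bgn was at 1301, 1310 and 1277 CPM in CD1530 and 2758, 2725 and 2595 in AGN, and Dcn at 1045, 1060 and 1057 against 389, 386 and 386. Nid1 and Hspg2 are also in the basement membrane list.

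Of 14 genes for folding, modifying, exporting and crosslinking collagen, which serve fibrillar collagens as well, 11 were called lower in CD1530 (24% of all genes) and 1, Loxl2, higher (0.41 ± 0.04, with 22.7% of all genes called higher). P4ha1 (0.06) and Mia3 (-0.00), named after their values were seen, were not called, and the median was -0.27. The most changed were P4ha2 (-0.87 ± 0.07) and P4hb (-0.59 ± 0.03), the subunits of a prolyl 4-hydroxylase, and Plod1 (-0.67 ± 0.04), a lysyl hydroxylase. P4ha2 was at 255, 259 and 251 CPM in CD1530 and 481, 466 and 452 in AGN. From PM to D10, 14 of the 14 were called higher in each condition, against 43.3% of all genes in CD1530 and 41.6% in AGN, and the median rise was 1.92 for CD1530 and 2.24 for AGN. Serpinh1, the collagen chaperone HSP47, had a difference of -0.31 ± 0.03 between the conditions.

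**Figure D5:**
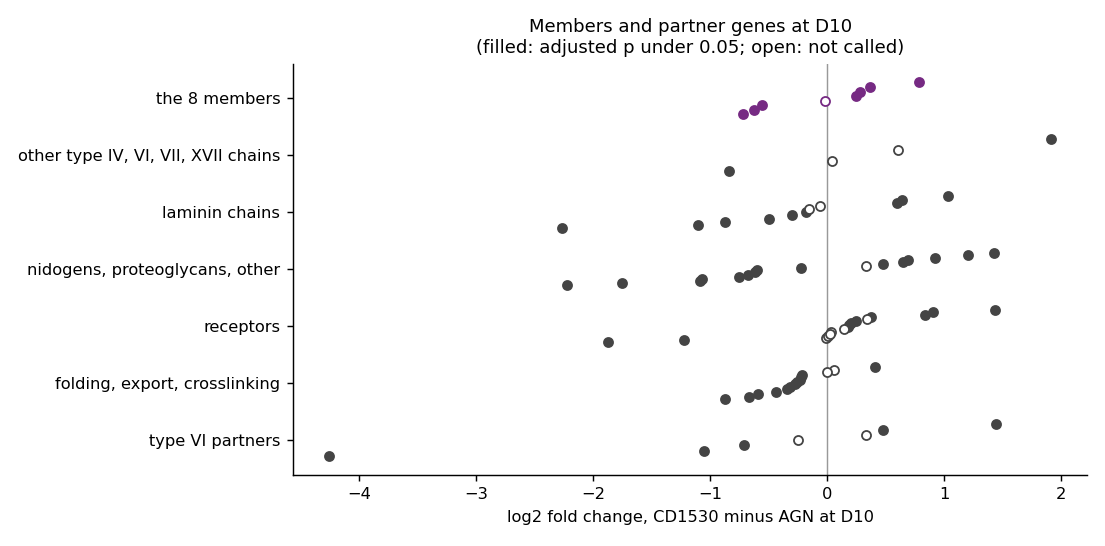
Log2 fold change of CD1530 minus AGN at D10 (horizontal axis) for the 8 collagen genes and for each partner list, 1 point per gene, filled for an adjusted p under 0.05. The 8 genes lie between -0.72 and 0.78, the folding and export genes lie mostly below 0, and the far-left point is Matn4 (-4.26).

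Markers of the labelled and of other cell types were read beside these results. In PM the paraxial mesoderm regulator Tbx6 was at 9.56 CPM and T at 79.0. By D10 Tbx6 was at 0.285 in CD1530 and 0.360 in AGN, and T at 0.503 and 27.1. Of the 5 paraxial mesoderm markers listed, Msgn1 and Dll1 also fell, whereas Meox1 rose, by 3.64 in CD1530 and 3.47 in AGN. The summed level of the 5 was 109 to 117 CPM in PM, and at D10 79.2 to 85.4 in CD1530 and 95.1 to 100 in AGN. The summed level of 5 tendon markers was 14605 to 15280 CPM in CD1530 at D10 and 17873 to 18951 in AGN, most of it from Col1a1 and Col3a1, and that of 4 cartilage markers was 223 to 229 against 2909 to 3042. Markers of other cell types that make basement membrane differed in both directions at D10. Over all genes, 22.7% were called higher in CD1530 and 24% lower in that contrast. Of 9 endothelial markers (all 9 measured) 3 were called higher in CD1530, Kdr (1.09), Emcn (1.24) and Tie1 (0.32), and 3 lower, Erg (-1.60), Cdh5 (-0.24) and Tek (-0.46). Their sum was 212 to 228 CPM in CD1530 and 289 to 301 in AGN, and without Erg, at 43.9 against 133 CPM, it was 167 to 185 and 156 to 167, with libraries that overlapped. Of 10 markers of parietal and visceral endoderm 4 were called higher, Gata6 (1.32), Gata4 (0.90), Sox17 (0.75) and Afp (1.99), and 2 lower, Foxa2 (-1.72) and Dab2 (-0.79). That sum was 102 to 104 CPM in CD1530 against 139 to 152 in AGN, and without Dab2, at 65.6 against 114, it was 35.4 to 39.4 against 29.9 to 34.3. Of 4 epithelial markers Krt8 (0.38) and Krt18 (0.78) were called higher and Epcam (-1.11) and Cdh1 (-1.14) lower, with a sum of 257 to 265 CPM against 353 to 361, and of 179 to 186 against 182 to 186 without Cdh1. The markers left out were chosen after the data were seen, as those of largest difference. Of the endoderm markers Ttr was at or below 3 counts in every library of both groups and Afp in AGN. The sum of 6 neural markers was higher in CD1530, 142 to 155 against 65.9 to 66.7. Of 6 skeletal muscle markers 4 were measured, with a sum of 7.70 to 10.0 against 8.38 to 8.61, and Myod1 was at 0 counts in CD1530. At D7.5, when Col15a1 was higher in CD1530, the endothelial sum was 524 to 545 CPM in CD1530 against 315 to 342 in AGN. Without Erg it was 496 to 516 against 296 to 325. The full sum was 495 to 532 against 313 to 332 at D6.75, when Col15a1 was not called with all libraries. It was 337 to 349 against 280 to 295 at D8.5, when Col15a1 was called higher in CD1530. The part of these cell types in the collagen levels was not tested, and in these bulk samples a change in the number of cells of a type cannot be told apart from a change in RNA per cell.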

How the data were processed

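RNA sequencing of 33 mouse libraries in 11 groups of 3 was used. The authors aligned paired-end reads to GRCm38 with STAR, counted reads per gene with featureCounts and deposited raw counts, which are not normalized. Every gene in the table reached 0.611 CPM in at least 3 libraries. Which annotation release and strand setting were used, and how multi-mapping reads were treated, is not given in the sources used here. Total counts per library ran from 17.1 to 38.1 M, and the counts of single genes carry counting error beside the spread between replicates.

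Genes were selected by symbol, and 8 of 9 were found. Counts were fitted in R 4.3.3 with edgeR 4.0.16: TMM normalization, filterByExpr (which removed no gene), 1 mean per group over all 33 libraries, and the robust quasi-likelihood F test. The Benjamini-Hochberg adjustment ran over 17120 genes in each of 19 contrasts: CD1530 against AGN at 5 time points, 10 steps, D10 against PM in both conditions, and interactions of condition with the last step and with time (4 degrees of freedom). Ratios between chains used counts per kilobase of exon (GENCODE M21) and a two-sided exact permutation test. Promoter windows came from RefSeq (GRCm38.p6), and windows of all 8 measured genes were matched by symbol.

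All members were named. From each partner list up to 3 genes were named by rule, the called ones of largest absolute fold change at D10, given 50 counts or more on average. Exceptions are marked in the text, and Vwa1, Nid1, Loxl2 and Serpinh1 were also named outside this rule. For each member the 2 most alike genes were given, under the same count minimum and leaving out Gm and Rik names. The members and lists were chosen with earlier results of these data known.

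Alternatives were DESeq2 1.42.0, DESeq2 size factors in edgeR, library size only, no filter, 1 CPM in 3 libraries as the filter, fits restricted to the groups compared, a replicate block, each library left out in turn, and the longest transcript for the ratios. The longest transcript for type sums and level orders, and marker sums without 1 marker, were added after the data were seen. Of 33 replicate pairs 0 were identical, and the chi-square per gene ran from 1.59 to 4.87, except for the 2 pairs with CD1530 D6.75 replicate 1, at 20.6 and 21.9.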

Additional observations from a re-analysis of the deposited data

Results flagged for a closer look

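For 5 of the 8 genes the change from D8.5 to D10 differed between the conditions, by the interaction term of the edgeR fit across all genes, and these are given here as values only. This interaction was called for 26.8% of all genes. The rise was larger in CD1530 by 0.50 on the log2 scale for Col4a1, 0.51 for Col4a2, 0.36 for Col4a5 and 0.36 for Col18a1. For Col15a1 the value was -0.49, the rise being called in AGN and not in CD1530. These 5 calls held in each of 19 alternatives.

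Over the 5 time points the gap between the conditions varied with time for 7 genes, by the interaction with 4 degrees of freedom. That interaction was called for 48.8% of all genes. The adjusted p-values in edgeR were 0.00039 for Col4a1, 0.0017 for Col4a2, 7.52e-06 for Col4a5, 0.000981 for Col6a1, 1.28e-05 for Col6a2, 0.000546 for Col15a1 and 3.6e-09 for Col18a1. No group had more than 3 libraries, so single libraries were not tested as outliers.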

How the results depend on the processing

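Over 122 tests of single genes and 1634 alternative values, 1592 kept their direction and their side of the threshold, among them every value of Col4a1, Col4a2, Col4a5, Col6a1, Col6a2 and Col6a3 at D8.5 and D10 between the conditions and every value of D10 against PM. Left out of this number were 22 steps that were not called, of which 10 were called in 1 or more alternatives. The directions that turned were of values near 0 that were not called. Col18a1 at D7.5 was -3.36e-05 with library-size scaling, and -0.000924 to 0.0329 with a library left out. Col15a1 at D10 was 0.022 with library-size scaling, 0.00142 in the compared groups only, and -0.0785 to 0.0276 with a library left out. Col6a3 in the interaction with the last step was -0.0265 to 0.095 with a library left out.
Fits of the compared groups only moved counts of called genes most: 804 against 329 at D6.25, 1236 against 3076 at D6.75, 5185 against 7853 from D6.25 to D6.75 and 2792 against 5854 from D6.75 to D7.5 in CD1530, and among the 8 genes 2 at D6.75 and 4 from D6.25 to D6.75 in AGN. The cause was not tested. With a library left out, 196 to 276 genes were called at D6.25, and of the 8 genes 0 to 3 at D6.25, 2 to 4 at D6.75 and 3 to 6 from D6.25 to D6.75 in CD1530.
Scaling by library size alone moved the median of all genes from -0.00 to -0.15 in AGN at D10 against PM, less than any member's rise.
With the replicate block, Col6a2 in the interaction with the last step was called (0.261, adjusted p = 0.0327 in edgeR), and no other call of the 8 genes changed. Between the conditions on the same day the numbers gave no sign of pairing. The correlation of same-numbered deviations ran from -0.108 to 0.0435 over 15 pairs, and a library correlated best with its own number in 1 of 15. Whether the numbers link libraries across days or with PM was not tested. Col4a5, with the lowest single count of the 8 genes, had at least 92 counts per library, and no fit at matched depth was run.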
